A study of Mus musculus with 26 samples.

Results

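The genes described here are the mouse zinc finger protein genes named only by a number (Zfp followed by digits) that were well counted in unstressed NIH3T3 cells. A gene was taken when its symbol had that form and when each of the 4 RNA control libraries held 200 or more counts for it, so the members were chosen by their RNA counts in the controls. This gave 236 of the 365 numbered Zfp symbols in the RNA table, which lists 20430 gene symbols in all. Of these, 9717 symbols of any kind met the same floor. NIH3T3 is an established line of mouse embryonic fibroblasts. The series asked how stress-induced transcription past gene ends reaches neighbouring genes, and it measured polyA-selected RNA and ribosome-protected footprints, the stretches of mRNA covered by translating ribosomes.

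RNA was sequenced in 8 groups of 2 libraries. One experiment compared a heat control with heat stress at 44 °C for 2 h and with heat stress at 42 °C for 8 h. The other compared 1 shared control with oxidative stress from H2O2 for 2 h or 7 h and with osmotic stress from KCl for 2 h or 7 h, so that every H2O2 and KCl value below rests on the same control. The 2 h groups of that experiment are called early and the 7 h groups late below. Footprints were read in the 5 groups of the H2O2 and KCl experiment, again with 2 libraries each. The doses, and whether the 2 libraries of a group came from separate cultures, are not given in the labels, so the p-values measure only the spread between these libraries, which may be technical. The labels name no genetic change in any group, and the cells are 1 immortalised line, not fresh embryonic tissue.

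RNA libraries held 24441877 to 45244430 counts and footprint libraries 1460751 to 5168537, so footprint values are less precise throughout. The 2 libraries of a group correlated at 0.994 to 0.996 for RNA and 0.957 to 0.978 for footprints across genes, on log2 values. The 9 fibroblast markers checked were all detected in every RNA library, from 0.67 TPM (a level scaled to library size and transcript length) for Postn to 4401.5 TPM for Vim. Vim, Col1a1, Col1a2, Fn1, S100a4 and Col3a1 stayed above 67 TPM in every library, while Pdgfrb (from 10.7 TPM), Thy1 (from 7.6 TPM) and Postn (at most 13.4 TPM) reached low levels. Of 10 markers of other cell types, Ptprc, Lyz2, Cdh5 and Myog reached at most 0.27 TPM. Cdh1 reached 0.97 TPM, Epcam 1.12 TPM, Krt5 2.01 TPM and Pecam1 2.14 TPM, and the last of these is about the control level of the lowest member given below. Cd68 (5.32 to 44.7 TPM) and Tubb3 (3.11 to 32.7 TPM) were clearly present. In bulk RNA, fewer cells that express a gene and less RNA per cell cannot be told apart.

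Most numbered Zfp genes encode C2H2 zinc finger proteins, in which each finger folds around a zinc ion and contacts a few bases of DNA. The largest group carries a KRAB domain, which recruits the corepressor Trim28 (KAP1) and through it the histone methyltransferase Setdb1, and many of its members silence retroelements. These genes arose by repeated local duplication and lie in clusters of paralogues. As a class their mRNAs are known to be short-lived and of low abundance; mRNA half-life was not measured in this series. Some numbered members have other tasks, such as the mRNA decay factor Zfp36, whose fingers are of the CCCH type, and the ribosome collision sensor Zfp598.

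In the unstressed cells the members were modest in level. Their median control level, averaged over the 4 control libraries, was 11.9 TPM with quartiles at 7.43 and 19.4 TPM, against a median of 37.3 TPM for the 9717 symbols with the same floor. Zfp207 was the most abundant at 199 TPM and Zfp697 the least at 2.07 TPM, and 139 members exceeded 10 TPM. At the edge of the rule, the lowest control count was 200 for Zfp691 and 202 for Zfp954 and Zfp184, which were taken, and 199 for Zfp11, 198 for Zfp429 and 196 for Zfp30, which were not. Because the control counts chose the members, each RNA comparison with a control is given below as a description. For these the number of members past the adjusted p threshold used over all genes is printed beside the share of all genes past it, only to convey size, and nothing is read from it as a test. Adjusted p-values are printed only for comparisons between 2 stress groups or between footprint groups.

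Promoters are shown first, for 5 members that share a motif and whose RNA was low after early KCl. The 250 bases before each RefSeq start site were read for the 192 members that matched the RefSeq promoter table (build GRCm38.p6, the patch release of mm10). Some genes had several start sites, so these members had 236 promoters. A gene was counted as holding a motif when any of its promoters did. The motif searched was ACTACA followed, after any 2 bases, by TCCCA, an element known as a binding sequence of Zfp143, on both strands (the other strand reads TGGGA, any 2 bases, TGTAGT). The motif stood upstream of 26 of the 192 members, or 13.5%, and of 1.55% of all 27025 genes in the table. The 5 stretches printed next, 5′ to 3′ on the strand of the gene, surround that motif in the 5 of its holders with the lowest RNA fold change after 2 h of KCl, and the capitals mark the motif or its other strand.
Zfp111: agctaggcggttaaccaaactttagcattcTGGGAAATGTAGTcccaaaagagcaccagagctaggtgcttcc
Zfp60: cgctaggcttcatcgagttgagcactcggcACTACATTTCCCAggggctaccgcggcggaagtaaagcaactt
Zfp738: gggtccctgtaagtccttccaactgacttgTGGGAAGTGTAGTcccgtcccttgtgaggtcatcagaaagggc
Zfp595: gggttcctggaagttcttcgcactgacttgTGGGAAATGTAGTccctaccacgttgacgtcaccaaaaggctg
Zfp58: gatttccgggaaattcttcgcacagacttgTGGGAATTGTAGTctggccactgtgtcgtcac

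The Zfp111 stretch lies at chr7:24208172-24208244 on the minus strand and that of Zfp60 at chr7:27731314-27731386 on the plus strand. Those of Zfp738 (chr13:67683527-67683599), Zfp595 (chr13:67332570-67332642) and Zfp58 (chr13:67500523-67500584) are all on the minus strand within 1 stretch of chromosome 13 and resemble each other beyond the motif, so they are not independent of each other. The Zfp595 stretch precedes a start site inside that gene, whose full span is chr13:67312985-67342954. The RNA log2 fold changes of the 5 genes in early KCl were -3.62, -3.26, -3.21, -2.62 and -2.50, in the order printed. The stretch upstream of Zfp367, the member that was highest over its control at that time, is printed with its CCAAT box on the other strand (ATTGG) in capitals, from chr13:64153256-64153320 on the minus strand.
Zfp367: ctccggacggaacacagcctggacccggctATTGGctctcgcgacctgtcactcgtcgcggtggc

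Of the 26 members with the motif, 23 were called lower and 0 higher in early KCl, with a median log2 fold change of -1.61. The 166 members with a promoter and without the motif had 129 called lower and 13 higher, with a median of -0.90, so a large majority was lower in either set. From 2 h to 7 h of KCl, 22 of the 26 were higher and 1 lower, with a median of 1.60, against 144 and 16 of the 166, with a median of 1.25. Other promoter elements were also more frequent in members than in all genes. Searched on both strands, CCAAT stood in 50.5% against 37.5%. Its holders include Zfp58 and Zfp738 as well as Zfp367, and in early KCl the 97 holders had 79 lower and 7 higher with a median of -1.15, against 73 and 6 of the 95 others with a median of -0.78. Members also held the ETS-type element CCGGAAG in 19.3% against 7.83% and the Sp1-type element GGGCGG in 47.9% against 35.4%. In early KCl the 37 holders of CCGGAAG and the 155 others both had a median of -0.94. GGGCGG went the other way from CCAAT. Its 92 holders had 64 lower and 11 higher with a median of -0.63, and the 100 others 88 and 2 with a median of -1.21. TATAAA was rarer, at 7.29% against 14.3%. Member promoters held a median of 11 CpG and 54.2% G and C, against 6 and 52.0% over all genes, with the first listed promoter of each gene taken. These are letter matches in a fixed window, and binding was not measured. The 27025 genes were not limited to those that met the count floor, as the members did. The part of expression in these differences between members and all genes was not tested.

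Levels below are in CPM, counts scaled to a common library size, which compare libraries but not genes of different length. Early osmotic stress gave the largest departure of these genes from their control. Relative to the mean of the 2 control libraries, the median member stood at 0.520 and 0.535 in the 2 RNA libraries taken after 2 h of KCl and at 1.22 and 1.21 in those taken after 7 h. Members made up 0.664% and 0.669% of all counts in the 2 control libraries, and 0.479% and 0.494% after 2 h of KCl. In edgeR's quasi-likelihood test with Benjamini-Hochberg adjustment over all genes, called below at an adjusted p under 0.05, 183 members were lower and 21 higher at 2 h, with a median log2 fold change of -0.91. Over the 13256 genes tested in that experiment, 54.2% were called in either direction, 27% lower and 27.2% higher. In the late group 126 members were called higher and 54 lower than in the same control, with a median of 0.30 (all genes, 68.8% called, 37.2% higher and 31.6% lower). In limma on log2(TPM + 1), called TPM scaling here and below, the late median was 0.17, with 98 higher and 61 lower. That setting changes the test and adds 1 to each TPM value besides changing the scaling, and these parts were not told apart. Marker genes moved as well. Of the 9 fibroblast markers 5 were higher and 0 lower in early KCl (median 0.34) and 5 higher and 3 lower in late KCl (0.15), and of 6 tested markers of other cells 2 were higher and 1 lower early (0.06) and 1 higher and 2 lower late (-0.57). Their part in the members' values was not tested.

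**Figure D1:**
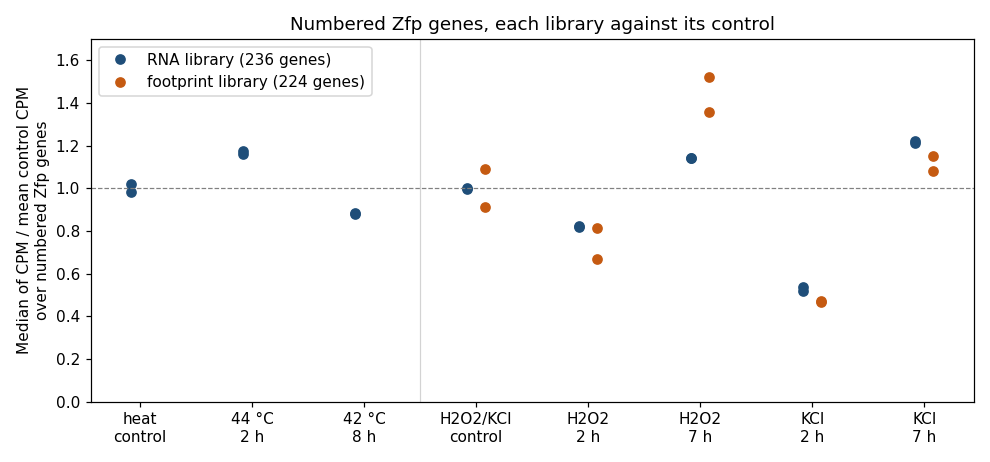
For each library, the point gives the median over the numbered Zfp genes of CPM divided by the mean CPM of the 2 matching control libraries, in blue for RNA (236 genes) and orange for footprints (224 genes). The 2 RNA libraries after 2 h of KCl sit at 0.520 and 0.535, those after 7 h at 1.22 and 1.21, and both footprint libraries after 2 h of KCl lie at 0.467 and 0.471.

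Lowest relative to its control after early KCl was Zfp799, a gene of chromosome 17 (chr17:32815449-32830261). Its RNA was 5.83 and 5.48 CPM in the control, 0.123 and 0.278 CPM after 2 h of KCl and 4.89 and 3.97 CPM after 7 h. The log2 fold change at 2 h was -4.78 ± 0.27 (SE, n = 2 per group), and both 2 h libraries lay far below every other RNA library. From 2 h to 7 h Zfp799 rose by a log2 value of 4.44 ± 0.30 (adjusted p = 1.11e-08, edgeR), so that at 7 h it again lay near its control. Zfp111 (chr7:24193215-24208149) behaved alike, at 18.9 and 19.0 CPM in the control, 1.44 and 1.63 CPM at 2 h and 24.5 CPM in both libraries at 7 h. Its change was -3.62 ± 0.11 at 2 h, and from 2 h to 7 h it rose by 3.99 ± 0.11 on the log2 scale (edgeR adjusted p = 8.42e-12). Zfp87, on chromosome 13 (chr13:67515781-67526231), went from 12.7 and 11.6 CPM to 1.15 and 0.834 CPM at 2 h and stood at 12.0 and 10.6 CPM at 7 h. Its log2 fold change at 2 h was -3.61 ± 0.17, and its 2 h libraries did not overlap any other group.

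The return between 2 h and 7 h was tested between 2 stress groups. The members were still chosen by their control counts, and the control libraries entered the same fit. The return was broad, with 197 members higher and 25 lower at 7 h than at 2 h and a median log2 difference of 1.25. Of all genes 68.8% were called, 35.1% higher and 33.7% lower. Zfp760 (chr17:21707430-21725636) ended above its control, going from 12.9 and 11.6 CPM in the control through 1.23 and 1.47 CPM at 2 h to 20.7 and 20.1 CPM at 7 h. Its rise from 2 h to 7 h was 3.91 ± 0.14 on the log2 scale (edgeR adjusted p = 6.26e-11).

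A few members lay above their control in early KCl. Zfp367 (chr13:64133022-64153199) stood at 62.6 and 68.8 CPM in the control, at 230 and 263 CPM after 2 h and at 73.0 and 85.0 CPM after 7 h. It was higher by a log2 value of 1.91 ± 0.09 at 2 h, and from 2 h to 7 h it fell by 1.64 ± 0.09 on that scale (edgeR adjusted p = 2.79e-09). Zfp131, a BTB zinc finger transcription factor, was at 67.3 and 67.8 CPM in the control and 116 and 127 CPM at 2 h (log2 fold change 0.85 ± 0.06). Zfp654 was at 22.0 CPM in both control libraries and at 33.9 and 40.2 CPM at 2 h (log2 fold change 0.75 ± 0.10). These 3 were the largest of the 21 members called higher.

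Late KCl had other members at its extremes. Zfp335 (chr2:164891882-164912585), a coactivator and chromatin-bound transcription factor needed in neural progenitors, was at 57.8 and 62.2 CPM in the control, 43.5 and 44.9 CPM at 2 h and 191 and 216 CPM at 7 h. The 2 late KCl libraries were the highest of the 16 RNA libraries, and the other 14 lay between 43.5 and 65.0 CPM. The change was 1.76 ± 0.07 against the control and 2.20 between 7 h and 2 h (edgeR adjusted p = 2.67e-11). Zfp560 (1.49) and Zfp820 (1.45) followed by log2 fold change. Zfp651 (chr9:121759319-121771742) moved the opposite way, from 21.3 and 21.7 CPM in the control and 24.9 and 24.2 CPM at 2 h to 5.72 and 5.61 CPM at 7 h. It fell by 2.11 on the log2 scale from 2 h to 7 h (edgeR adjusted p = 1.29e-10). Zfp523 (-1.90) and Zfp213 (-1.82) were the next lowest against the control, and Zfp326 had the second largest fall between 2 h and 7 h, by 1.71 (edgeR adjusted p = 9.4e-09).

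**Figure D2:**
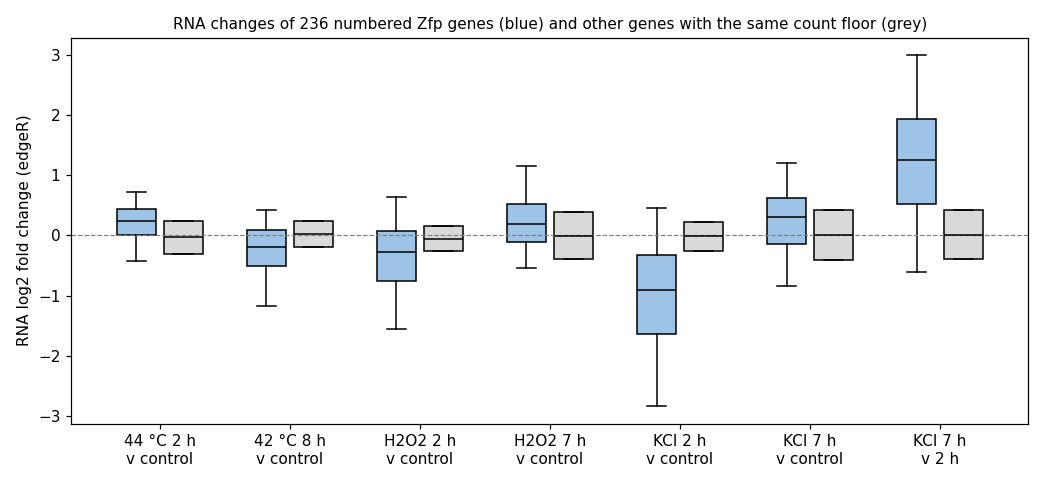
Boxes give the RNA log2 fold changes of the 236 numbered Zfp genes (blue; line at the median, box at the quartiles, whiskers at the 5th and 95th percentiles) and, in grey, the quartiles and median of the other genes with the same count floor, drawn without whiskers. The blue median lies at -0.91 for 2 h of KCl against control and at 1.25 for 7 h against 2 h, while each grey median lies near 0.

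Oxidative stress had the members below control early and above it late, by less than osmotic stress. The median member stood at 0.821 and 0.819 of the control mean in the 2 RNA libraries after 2 h of H2O2 and at 1.14 in both after 7 h. At 2 h 126 members were called lower and 42 higher, with a median log2 fold change of -0.28 (all genes, 53.9% called, 27.3% higher and 26.5% lower). At 7 h 108 were called higher and 41 lower, with a median of 0.19 (all genes, 70.5% called, 39.4% higher and 31.1% lower). Between 7 h and 2 h, 149 members were higher and 36 lower, with a median difference of 0.52 (all genes, 73.4% called, 37.3% higher and 36.1% lower). The late median over all genes was itself 0.08. Without replicate 1 of late H2O2 the late median of the members was 0.11, with 83 higher and 48 lower, and on TPM scaling it was 0.11, with 79 and 47. Marker genes moved strongly in late H2O2. Of the 9 fibroblast markers 0 were higher and 8 lower, with a median log2 fold change of -1.18, and 5 of 6 tested markers of other cells were higher and 0 lower, with a median of 1.7. In early H2O2 these were 1 higher and 4 lower (-0.16) and 4 higher and 0 lower (1.00). The part of these shifts in the members' values was not tested.

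Zfp36 (chr7:28376784-28379228), which encodes tristetraprolin, a factor that triggers decay of mRNAs with AU-rich elements, led the members higher in early H2O2. Its RNA was 15.1 and 15.2 CPM in the control, 81.4 and 94.2 CPM at 2 h and 23.6 and 27.3 CPM at 7 h. The change at 2 h was 2.54 ± 0.09 on the log2 scale, and from 2 h to 7 h it fell by 1.79 ± 0.09 (edgeR adjusted p = 4.74e-10). After 2 h of KCl it read 23.5 and 24.6 CPM. Zfp655 was at 48.5 and 45.5 CPM in the control and 127 and 133 CPM after 2 h of H2O2, a log2 fold change of 1.47, and Zfp672 followed at 1.12.

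Among the members lowest in early H2O2, Zfp61 was at 9.89 and 9.67 CPM in the control and 1.94 and 1.63 CPM at 2 h (log2 fold change -2.46 ± 0.14). Zfp503, a developmental transcriptional repressor, was at 65.4 and 73.3 CPM in the control and 15.2 and 15.6 CPM in early H2O2, a change of -2.17 ± 0.08, while after 2 h of KCl it read 61.9 and 63.5 CPM. The difference between H2O2 and KCl at 2 h was -2.02 ± 0.08 on the log2 scale (edgeR adjusted p = 1.51e-10). Zfp760 was also among the lowest, at 3.30 and 2.66 CPM after 2 h, and its level at 7 h, 29.1 and 31.1 CPM, lay above the control. From 2 h to 7 h of H2O2 it rose by 3.34 ± 0.11 (edgeR adjusted p = 6e-12), and Zfp442 rose by 2.89 (edgeR adjusted p = 1.92e-10).

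The highest value of any member relative to its control was that of Zfp365 (chr10:67886105-67912662), whose human counterpart is a p53 target involved in genome stability. Its RNA was 12.8 and 13.3 CPM in the control, 12.0 and 13.9 CPM after 2 h of H2O2 and 242 and 249 CPM after 7 h. In the KCl libraries it was 10.2 and 11.6 CPM at 2 h and 6.64 and 7.72 CPM at 7 h, so that the 2 libraries after 7 h of H2O2 stood alone. The change was 18.8-fold against the control, a log2 value of 4.23 ± 0.08. It rose by 4.24 ± 0.08 from 2 h to 7 h (edgeR adjusted p = 4.37e-14) and exceeded its level after 7 h of KCl by 5.10 ± 0.09 (edgeR adjusted p = 1.17e-14). Zfp219, a transcription factor, followed, at 29.2 and 31.9 CPM in the control and 123 and 131 CPM after 7 h of H2O2, a log2 fold change of 2.06 ± 0.07, and Zfp850 came next at 1.75.

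The members lowest after 7 h of H2O2 were Zfp521, Zfp618 and Zfp469. Zfp521, a cofactor that binds early B-cell factors, was at 9.62 and 10.4 CPM in the control and 1.97 and 1.7 CPM at 7 h (log2 fold change -2.43 ± 0.14). Zfp618 was at 34.8 and 34.1 CPM and then 7.40 and 8.15 CPM, a change of -2.15 ± 0.12. Both had fallen between 2 h and 7 h, by 1.93 and 1.68 on the log2 scale (edgeR adjusted p = 2.46e-08 and 1.76e-08). Zfp469, whose human counterpart is mutated in a brittle cornea syndrome, changed by -1.48 ± 0.08 against the control.

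Set against each other directly, the 2 chemical stresses differed in direction mainly one way at 2 h and both ways at 7 h. At 2 h 154 members were higher and 20 lower in H2O2 than in KCl, with a median difference of 0.64 on the log2 scale (all genes, 51.3% called, 27% higher and 24.2% lower). At 7 h 83 were higher and 94 lower, with a median of -0.07 (all genes, 78.4% called, 41% higher and 37.4% lower), or -0.02 on TPM scaling. Zfp799 (3.23), Zfp111 (3.05) and Zfp59 (2.91) were the furthest above KCl at 2 h, with edgeR adjusted p of 2.73e-06, 2.03e-10 and 1.25e-07. Zfp503, Zfp703 (-1.36, edgeR adjusted p = 9.13e-10) and Zfp608 (-1.33, edgeR adjusted p = 5.14e-08) were furthest below it. At 7 h Zfp213 was at 40.2 and 38.9 CPM in H2O2 and 4.86 and 4.11 CPM in KCl, against 15.3 and 16.5 CPM in the control, so it lay on opposite sides of the control in the 2 stresses. That difference was 3.13 ± 0.11 (edgeR adjusted p = 3.47e-12). Zfp651 showed the same arrangement, at 44.8 and 44.3 CPM in H2O2 against 5.72 and 5.61 CPM in KCl (difference 2.98 ± 0.08, edgeR adjusted p = 4.75e-13), and Zfp335 the reverse, lower in H2O2 by a log2 difference of -2.15 (edgeR adjusted p = 3.02e-12).

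**Figure D3:**
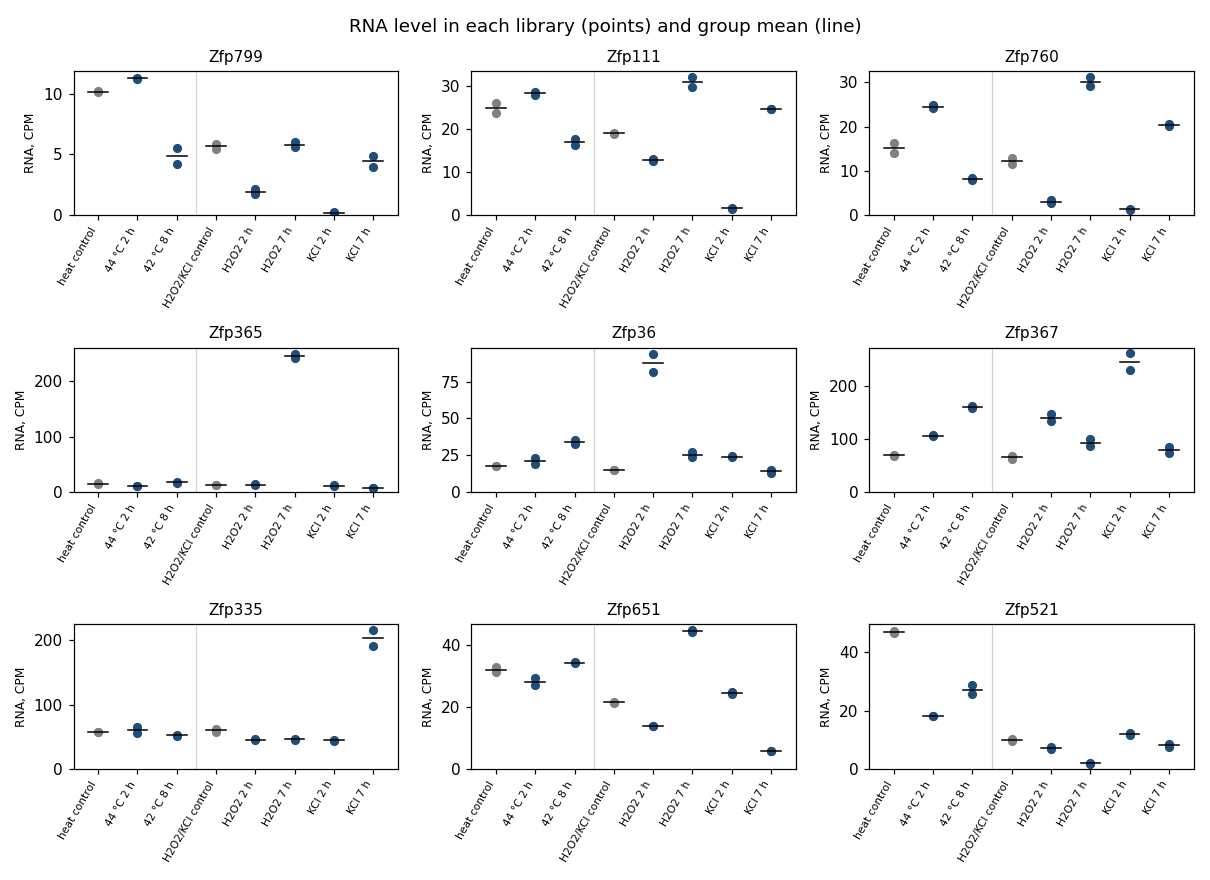
RNA level in CPM in each library (points, grey for controls) and the group mean (line) for 9 members, with the heat experiment left of the vertical line and the H2O2 and KCl experiment right of it. Zfp365 stands at 242 and 249 CPM only after 7 h of H2O2, Zfp335 at 191 and 216 CPM only after 7 h of KCl, and Zfp799, Zfp111 and Zfp760 are lowest after 2 h of KCl.

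After the 2 heat regimes the typical member lay on opposite sides of the heat control. After 44 °C for 2 h the median member stood at 1.16 and 1.17 of the control mean, and 136 were called higher and 32 lower, with a median log2 fold change of 0.23 (all genes, 71% called, 35.4% higher and 35.7% lower). After 42 °C for 8 h the ratios were 0.877 and 0.884, and 122 were called lower and 47 higher, with a median of -0.19 (all genes, 63.6% called, 31.7% higher and 31.9% lower). On TPM scaling the median of all genes at 42 °C moved to -0.16 and that of the members to -0.35, with 161 called lower and 17 higher. Between the regimes, 152 members were lower and 29 higher at 42 °C than at 44 °C, with a median of -0.39 (all genes, 75.1% called, 37.9% higher and 37.2% lower). On TPM scaling, which put the median of all genes at -0.20 there, 190 were lower and 13 higher. Both regimes were set against the same 2 control libraries. They differ in temperature and in duration, and the parts of these cannot be told apart. Of the 9 fibroblast markers 9 were lower at 44 °C (median -0.45), and 6 were lower and 2 higher at 42 °C (-0.31). Their part in the members' values was not tested.

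Zfp276 (chr8:123254195-123270551) stood out at 44 °C, at 30.7 and 31.0 CPM in the control, 73.9 and 82.6 CPM at 44 °C and 30.9 and 31.1 CPM at 42 °C. Its log2 fold change at 44 °C was 1.34 ± 0.06, followed by Zfp169 (1.02) and Zfp53 (0.93). Zfp521 was lowest, at 46.5 and 47.4 CPM in the control, 18 CPM in both libraries at 44 °C and 25.6 and 28.7 CPM at 42 °C, a log2 fold change of -1.38 ± 0.06 at 44 °C. It was thus below its own control in both experiments, though the 2 controls themselves differed in its level. Zfp28 (-1.08) and Zfp618 (-0.93) came next.

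At 42 °C Zfp867 was lowest, at 8.54 and 8.00 CPM in the heat control, 6.82 and 6.11 CPM at 44 °C and 1.54 and 1.06 CPM at 42 °C, a log2 fold change of -2.64 ± 0.16. Zfp58 was at 9.14 and 9.25 CPM and then 2.92 and 2.79 CPM at 42 °C (-1.69 ± 0.11), and Zfp39 followed at -1.63. Between the regimes the lowest at 42 °C relative to 44 °C were Zfp867 (-2.29, edgeR adjusted p = 1.55e-08), Zfp87 (-2.09, edgeR adjusted p = 5.59e-11) and Zfp58 (-1.92, edgeR adjusted p = 9.07e-10). Zfp58, whose promoter stretch is printed above, and its neighbour Zfp87 were also far down in early KCl, where Zfp58 read -2.50 and Zfp87 -3.61. Highest at 42 °C against its control was Zfp367, at 70.0 and 68.3 CPM, then 162 and 158 CPM, a change of 1.21 ± 0.04. Zfp36 was next at 0.93, from 17.4 and 17.9 CPM to 32.5 and 35.0 CPM, and Zfp655 came after it at 0.71. Relative to 44 °C the members furthest above were Zfp277 (1.01, edgeR adjusted p = 1.44e-07), Zfp469 (0.89, edgeR adjusted p = 2.13e-09) and Zfp503 (0.87, edgeR adjusted p = 1.32e-08).

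In all 6 stress groups 2 members were called higher than their control, Zfp367 and Zfp654, and 4 lower, Zfp90, Zfp414, Zfp523 and Zfp827. These are 0.847% and 1.69% of the members, beside 1.62% and 1.43% of the 12452 genes tested in both experiments (202 higher and 178 lower), and the comparisons share controls, so nothing about the class is read from them. For Zfp654 the log2 fold changes ran from 0.52 (42 °C and early H2O2) to 0.92 (44 °C), where its level went from 25.8 and 23.5 CPM to 49.7 and 43.6 CPM. For Zfp367 they ran from 0.27 in late KCl to 1.91 in early KCl, and for Zfp414 from -0.96 in early KCl to -0.52 in early H2O2. Zfp827 ranged from -1.12 in late H2O2 to -0.32 at 42 °C, Zfp90 from -1.45 in early KCl to -0.30 at 42 °C, and Zfp523 from -1.90 in late KCl to -0.27 in late H2O2. The weakest of these calls depended on single libraries. Zfp90 at 42 °C was not called without replicate 2 of that group (-0.23) or replicate 1 of the heat control (-0.21). Zfp523 in late H2O2 was not called without replicate 2 of that group (-0.26) or replicate 2 of the control (-0.23), and Zfp367 in late KCl was not called without replicate 2 of that group (0.15) or replicate 1 of the control (0.20).

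The counts by role that follow are small and are to be read against the shares of all genes called in the same comparison, printed above (27.2% higher and 27% lower in early KCl, 37.2% and 31.6% in late KCl). Nothing particular to a list is read from them. The 10 members with tasks in RNA metabolism and at the ribosome were divided in early KCl, with 3 called higher and 3 lower, and in late KCl 6 were higher and 1 lower. Heat at 44 °C had 4 higher and 0 lower, heat at 42 °C 6 and 0, early H2O2 3 and 2, and late H2O2 5 and 2. Zfp207, a spindle and splicing factor, was at 237 and 224 CPM in the control, 241 and 252 CPM after 2 h of KCl and 464 and 461 CPM after 7 h, a rise of 0.91 ± 0.06 from 2 h to 7 h on the log2 scale (edgeR adjusted p = 1.2e-08). Zfp598, the ubiquitin ligase that marks collided ribosomes, was at 84.4 and 86.4 CPM in the control, 90.9 and 82.9 CPM after 2 h of H2O2 and 166 and 159 CPM after 7 h, a rise of 0.90 ± 0.06 between the times (edgeR adjusted p = 1.13e-08). Zfp622, which acts in assembly of the large ribosomal subunit, was higher at both 2 h time points, from 62.0 and 68.3 CPM to 107 and 103 CPM in H2O2 and 94.0 and 96.6 CPM in KCl. Zfp593, a factor of large-subunit export, was at 12.7 and 12.5 CPM in the control and 27.8 and 28.0 CPM after 7 h of H2O2, but at 12.4 and 10 CPM after 7 h of KCl (difference 1.31 ± 0.09, edgeR adjusted p = 1.06e-08). Zfp326, part of a complex that links transcription elongation to splicing, was at 48.4 and 55.6 CPM in the control and 20.8 and 17.8 CPM after 7 h of KCl. Zfp830, a splicing-associated protein, followed the course of the majority, at 20.3 and 22.1 CPM in the control, 8.60 and 7.15 CPM after 2 h of KCl and 27.7 and 26.5 CPM after 7 h.

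The list of transcription and chromatin factors held 20 members, while Zfp423 and Zfp462 on it were under the floor. In that list early KCl had 10 lower and 6 higher, late KCl 12 higher and 6 lower, early H2O2 8 lower and 4 higher, and late H2O2 7 higher and 8 lower. Heat at 44 °C had 7 higher and 8 lower, and heat at 42 °C 9 and 5. Zfp143, the factor known to bind the printed promoter motif, was at 24.4 and 25.3 CPM in the control, 18.9 and 18.3 CPM after 2 h of KCl and 61.3 and 62.1 CPM after 7 h. It rose by 1.73 ± 0.07 on the log2 scale between the times (edgeR adjusted p = 1.29e-10). Zfp263 was among the lowest of the list, at 36.5 and 33.0 CPM in the control and 7.61 and 6.43 CPM after 2 h of KCl, a change of -2.31 ± 0.10. Zfp292, a large transcription factor, was at 42.0 and 45.3 CPM in the control and 105 and 112 CPM after 7 h of KCl, and Zfp703 was at 89.8 and 95.6 CPM, then 151 and 148 CPM after 2 h of KCl and 57.8 and 58.8 CPM after 2 h of H2O2.

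Of 8 genes listed for silencing of retroelements or for imprinting, 6 were members, Zfp708 and Zfp819 being under the floor. In early KCl 5 of the 6 were lower and 1 higher, and in late KCl 6 of the 6 were higher than control, where 37.2% of all genes were. Zfp809, which silences retroviral DNA through the primer binding site, was at 7.90 and 8.18 CPM in the control, 3.04 and 3.46 CPM at 2 h and 10 and 10.2 CPM at 7 h, a rise of 1.64 ± 0.12 between the times (edgeR adjusted p = 1.84e-08). The imprint factors Zfp445 (74.0 and 74.7 CPM in the control, 36.5 and 42.9 CPM at 2 h, 115 and 114 CPM at 7 h) and Zfp57 (21.2 and 21.6 CPM, then 13.1 and 11.2 CPM, then 34.6 and 32.9 CPM) took the same course. They rose between the times by 1.53 ± 0.08 and 1.48 ± 0.09 (edgeR adjusted p = 1.87e-09 and 4.05e-09). Zfp568, a repressor of a placental Igf2 transcript, was the exception, at 25.6 and 28.1 CPM in the control, 41.1 and 46.7 CPM at 2 h and 47.9 and 50.4 CPM at 7 h. Heat at 44 °C had 5 of the 6 higher and 0 lower, heat at 42 °C 1 and 3, early H2O2 1 and 1, and late H2O2 4 and 0.

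The 25 genes of the machinery that KRAB proteins recruit, none of them a numbered Zfp gene, had 11 called higher and 6 lower in early KCl, with a median log2 fold change of 0.09, and in late KCl 16 were higher and 7 lower. Early H2O2 had 3 higher and 13 lower, late H2O2 7 and 12, heat at 44 °C 10 and 6, and heat at 42 °C 13 and 7. Trim28 itself was at 387 and 389 CPM in the control and 463 and 441 CPM after 2 h of KCl, and Setdb1 at 99.1 and 97.7 CPM and then 107 and 110 CPM.

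Footprints could be tested for 224 of the 236 members, the others having too few footprint counts. In early KCl 54 were called lower and 3 higher, with a median log2 fold change of -1.06, where 6.86% of all 10545 genes tested were called, 1.79% higher and 5.06% lower. Late KCl had 19 higher and 7 lower, with a median of 0.20 (all genes, 20.4% called, 10.5% higher and 9.83% lower), or 11 and 7 on TPM scaling. That median was 0.39 without replicate 1 of the control, 0.03 without replicate 2 of the control and 0.09 without replicate 2 of KCl. Early H2O2 had 2 higher and 3 lower (all genes, 1.91% called, 1.14% higher and 0.768% lower), DESeq2 2 and 1, and limma on TPM 1 and 0. Late H2O2 had 44 higher and 5 lower, with a median of 0.54 (all genes, 27.7% called, 17.2% higher and 10.6% lower), or 43 and 2 on TPM scaling, which put the median of all genes at 0.11. In the late H2O2 footprints 4 of 9 fibroblast markers were lower and 0 higher, and 3 of 3 tested markers of other cells were higher (median 2.61), and their part was not tested. These counts moved with single libraries. The 57 calls of early KCl came to 15 without replicate 1 of KCl, 17 without replicate 2 and 18 without replicate 1 of the control. The 49 calls of late H2O2 came to 21 without replicate 1 of H2O2, 23 without replicate 2 and 22 without replicate 2 of the control. The 26 calls of late KCl came to 13 without replicate 1 of KCl, 11 without replicate 2 and 12 without replicate 2 of the control, and the 5 calls of early H2O2 came to 2 when 1 of the H2O2 libraries was left out and to 1 when 1 of the control libraries was.

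Among the members lower in footprints in early KCl, Zfp111 was at 14.2 and 12.6 footprint CPM in the control and 1.01 and 1.39 at 2 h, a log2 fold change of -3.45 ± 0.40 (edgeR adjusted p = 0.000387). Zfp60 had 89 footprint counts over the 2 control libraries and 3 over the 2 KCl libraries, a ratio of 22.5 with a 95% exact counting interval of 7.45 to 111 (edgeR adjusted p = 0.00421, and 0.0506 without replicate 1 of KCl). No footprint was counted in either 2 h KCl library for Zfp799, Zfp97, Zfp951 and Zfp760. Set against a floor of 3 counts per library, their control means were 2.89-fold, 5.76-fold, 2.61-fold and 1.46-fold higher. These are not lower bounds, since the counting error of the control is left out. Control counts were 13 and 10 for Zfp799, 14 and 7 for Zfp951, and 10 and 2 for Zfp760, where replicate 2 was itself under the floor. For Zfp97, with 37 and 10 counts in the control, the call (edgeR adjusted p = 0.0145) was lost without replicate 1 or 2 of KCl or replicate 1 of the control, at adjusted p of 0.0861, 0.0867 and 0.0836. Zfp263 was at 14.7 and 10.4 footprint CPM in the control and 1.68 and 0.348 at 2 h (-3.58 ± 0.58, edgeR adjusted p = 0.00353), and Zfp809 fell by 2.38 on the log2 scale (edgeR adjusted p = 0.0427). The calls of Zfp111, Zfp263 and Zfp809 were not recomputed with libraries left out, so whether they would hold is not known. Intervals cover counting error only, and the floors only that of the 2 h KCl libraries.

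Zfp367 had the largest rise in early KCl in footprints too, from 29.4 and 29.1 to 101 and 80.0 footprint CPM, a log2 fold change of 1.63 ± 0.21 (edgeR adjusted p = 0.000731). Zfp36 followed at 1.27 ± 0.29 (edgeR adjusted p = 0.019), a call that was lost without replicate 1 of KCl (0.0816), replicate 2 of KCl (0.0958) or replicate 1 of the control (0.128). Under H2O2 the footprints of Zfp36 went from 14.9 and 19.5 to 230 and 146 CPM at 2 h, a change of 3.44 ± 0.29 (edgeR adjusted p = 4.25e-05). The other calls in early H2O2 that met the naming rule, Zfp622 (0.86, adjusted p = 0.0302), Zfp469 (-2.05, adjusted p = 0.0207) and Zfp608 (-1.82, adjusted p = 0.0467 in edgeR), did not hold when either control library or replicate 2 of H2O2 was left out, nor did those of Zfp622 and Zfp608 without replicate 1 of H2O2. Across those omissions the adjusted p ran from 0.0628 to 0.227.

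After 7 h of H2O2 Zfp365 again led, at 1.22 and 3.30 footprint CPM in the control and 49.8 and 59.9 after 7 h, a log2 fold change of 4.61 ± 0.38 (edgeR adjusted p = 2.36e-06). Against 7 h of KCl it had 383 footprint counts to 3, a ratio of 113 with a 95% exact counting interval of 38.4 to 551 (edgeR adjusted p = 7.84e-07). Zfp219 went from 3.42 and 4.12 to 27.1 and 30.2 footprint CPM, 2.92 ± 0.35 (edgeR adjusted p = 5.27e-05), and Zfp598 rose by 0.87 (edgeR adjusted p = 0.0214). The Zfp598 call was not recomputed with libraries left out. Zfp469 was lower in footprints in both stresses at 7 h, from 19.8 and 19.5 to 5.41 and 3.46 CPM in H2O2 (-2.14, edgeR adjusted p = 0.00107) and to 5.26 and 4.82 CPM in KCl (-1.96, edgeR adjusted p = 0.00408). Zfp827 fell by 1.29 in late H2O2 (edgeR adjusted p = 0.0183), which was 0.0645 without replicate 1 and 0.11 without replicate 2 of H2O2 and 0.0664 without replicate 1 of the control.

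After 7 h of KCl, Zfp292 footprints rose by 1.93 ± 0.24 on the log2 scale (edgeR adjusted p = 0.000235), those of Zfp143 by 1.85 ± 0.23 (edgeR adjusted p = 0.000235), those of Zfp335 by 1.7 (edgeR adjusted p = 0.000398) and those of Zfp207 by 1.26 ± 0.20 (edgeR adjusted p = 0.00121). All 4 were also higher in RNA at that time. The footprint calls of Zfp143, Zfp335 and Zfp207 against the control were not recomputed with libraries left out. Zfp937 (2.01, adjusted p = 0.0262) and Zfp414 (-1.53, adjusted p = 0.0439 in edgeR) were called, and neither call held when replicate 2 of the control or either KCl library was left out, where the adjusted p ran from 0.0981 to 0.265. Directly between H2O2 and KCl at 7 h, 47 members were higher and 12 lower in footprints, with a median of 0.32 (all genes, 41.2% called, 23.5% higher and 17.8% lower), or 0.15 without replicate 1 of H2O2. On TPM scaling the median of all genes was 0.18 and the counts 53 and 7. The 59 calls came to 26 without replicate 1 and 31 without replicate 2 of H2O2, and to 31 and 32 without replicate 1 or 2 of KCl. Zfp13 was higher in H2O2, at 10.2 and 9.5 against 0 and 1.14 footprint CPM (3.88 ± 0.76, edgeR adjusted p = 0.00132), and Zfp335 (-2.01, edgeR adjusted p = 2.73e-05) and Zfp207 (-1.36, edgeR adjusted p = 0.000169) were lower.

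Across the 224 genes Pearson's r between the 2 log2 fold changes was 0.565 for early H2O2, 0.682 for late H2O2, 0.688 for early KCl and 0.655 for late KCl. Over all 10480 genes tested in both it was 0.288, 0.841, 0.393 and 0.679. Genes are no independent replicates for such a correlation, and both measures come from controls of the same experiment. Of the 54 members lower in footprints in early KCl, 49 were also lower in RNA, against 292 of 527 over all genes. In late H2O2 37 of the 44 higher in footprints were higher in RNA (all genes, 1700 of 1809), and 3 of the 5 lower were lower (917 of 1090). In late KCl these were 19 of 19 (1059 of 1109) and 4 of 7 (878 of 1019).

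**Figure D4:**
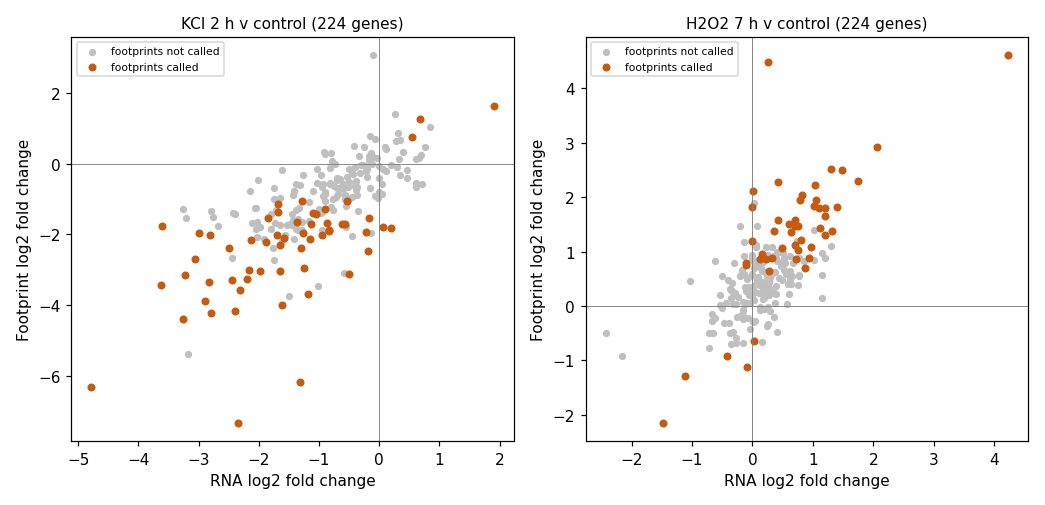
Each point is 1 of 224 members, with its RNA log2 fold change on the x axis and its footprint log2 fold change on the y axis, for 2 h of KCl (left) and 7 h of H2O2 (right) against control, orange where the footprint change was called. Members lie mostly in the lower left after KCl (r = 0.688), Zfp367 is the upper right point there, and Zfp365 is the upper right point after H2O2; the points lowest on the left include genes with 0 footprint counts, whose fitted values are not bounds.

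Translational efficiency, the footprint level relative to the RNA level, was modelled over both kinds of library and is a description here, since the RNA controls enter it. In early H2O2 5 members were called higher and 8 lower (all genes, 11.4% called, 3.98% higher and 7.46% lower), and in late H2O2 20 and 2 (9.27% called, 4.69% higher and 4.57% lower). In early KCl 4 were higher and 13 lower (12.8% called, 3.58% higher and 9.18% lower), and in late KCl 4 and 8 (5.57% called, 1.69% higher and 3.88% lower). These counts moved with single libraries. Late KCl had 8 higher and 6 lower without replicate 1 of the footprint control, 1 and 4 without replicate 1 of the RNA control, 0 and 7 or 1 and 5 without replicate 1 or 2 of its footprints, and 1 and 6 without either of its RNA libraries. Early H2O2 had 6 and 17 without replicate 2 of its footprints, 6 and 16 without replicate 2 of the footprint control, 2 and 3 without replicate 2 of its RNA and 4 and 3 without replicate 1 of the RNA control. Early KCl had 4 and 22 without replicate 2 of the footprint control and 1 and 8 without replicate 2 of its footprints. Late H2O2 had 6 and 0 without replicate 2 of the footprint control, 9 and 1 without replicate 1 of its footprints, 8 and 0 without replicate 1 of the RNA control and 10 and 0 without replicate 2 of it or either H2O2 RNA library. Zfp106, an RNA-binding protein needed for motor neuron maintenance, was lower in all 4, by log2 values of -0.85, -0.68, -2.04 and -1.30 in that order. In early KCl its RNA read 247 and 306 CPM against 237 and 248 CPM in the control, and its footprints 30.2 and 32.3 CPM against 104 and 120 CPM, a footprint change of -1.84 ± 0.20 (edgeR adjusted p = 0.000225). So its footprints fell while its RNA was not called. Zfp91 was also lower in efficiency in early KCl, by -1.28 ± 0.18, but its RNA stood higher, at 248 and 281 CPM against 170 and 177 CPM. Its footprints read 21.1 and 24 CPM against 36.4 and 34.6 CPM and were not called (edgeR adjusted p = 0.0978). Zfp503 went the other way, its efficiency being higher by 1.35 in early H2O2, 1.49 in late H2O2 and 0.91 in early KCl. In late H2O2 Zfp217, a corepressor-associated factor, was higher by 1.10, with RNA at 22.8 and 22.6 CPM against 28.0 and 28.3 CPM.

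All 236 members could be placed on GRCm38.p6, and 125 of them had another numbered Zfp gene within 100 kb. Chromosome 7 held 51 members, chromosome 17 34, chromosome 8 17, chromosome 13 15 and chromosome 5 14. In early KCl 111 of the 125 clustered members were lower and 2 higher, with a median log2 fold change of -1.34. Of the 111 others, 72 were lower and 19 higher, with a median of -0.51. The clustered members also stood further from 0 between 7 h and 2 h of KCl (114 higher and 2 lower, median 1.55, against 83 and 23, median 0.78) and in footprints in early KCl (35 lower and 0 higher, median -1.42, against 19 and 3, median -0.57). At 44 °C they were 85 higher and 9 lower against 51 and 23, and at 42 °C 72 lower and 16 higher against 50 and 31. Level moved with this too. The 118 members at or below the median control TPM had 102 lower and 7 higher in early KCl, median -1.40, and the other 118 had 81 lower and 14 higher, median -0.62. These splits were chosen with values in view, and the part of level in the difference by position was not tested.

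**Figure D5:**
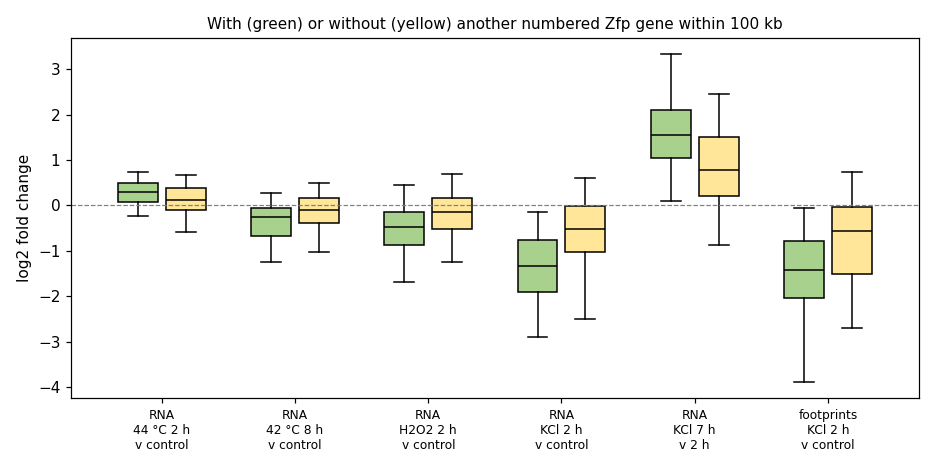
Log2 fold changes of members with (green, 125 genes) and without (yellow, 111 genes) another numbered Zfp gene within 100 kb, with the line at the median, the box at the quartiles and whiskers at the 5th and 95th percentiles. In early KCl the green median is -1.34 and the yellow -0.51 in RNA, and -1.42 and -0.57 in footprints.

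Within single clusters the members did not all read alike. The block at chr17:32765496-33110707 holds 6 members of its 8 numbered genes, Zfp871, Zfp799, Zfp870, Zfp472, Zfp952 and Zfp563, and their changes in early KCl ran from -4.78 to -0.17 with a median of -2.28. In the block at chr17:21383707-21994366, with 10 members of 13, they ran from -3.18 to 0.67 with a median of -0.94. The 6 members of 7 at chr6:47815536-48086986 were all lower, from -1.75 to -1.06. At chr7:29768552-30169775, with 10 members of 15, 9 were lower and 1, Zfp568, higher. Paralogues in such blocks can share reads, and how the authors' counting divided them can shift values between near-identical copies, so single members of a block are less certain than their sum. The labels do not say whether the counting used strand, so reads from a member and an overlapping antisense gene cannot be told apart.

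The authors also called transcription past gene ends. Of 6399 pairs of neighbouring genes in the authors' deposited table, a member was upstream in 129 and downstream in 88. A readthrough transcript past the member's end was listed in 20.2% and 26.4% of the 129 pairs in the 2 libraries after 2 h of KCl, against 31.9% and 34.7% of all pairs, and in 27.9% and 29.5% after 2 h of H2O2, against 34.4% and 35.7%. In their control the shares were 17.8% and 20.9% against 24.2% and 25.2%, so the members lay below all pairs there too. After 7 h they were 25.6% and 22.5% for KCl against 23.8% and 23.4%, and 20.9% and 15.5% for H2O2 against 19.4% and 21.2%. In the heat experiment they were 24.8% and 30.2% in the control against 27.9% and 26.5%, 34.9% and 28.7% at 44 °C against 32.7% in both, and 26.4% and 31.0% at 42 °C against 32.0% and 30.5%. Members thus lay on either side of all pairs, and no test was made. The read-in estimate is a ratio from the authors' deposited table whose formula the labels do not give. One pair stood out, Ppm1g upstream of Zfp513, whose estimates were 0.184 and 0.224 in the H2O2 and KCl control, 0.839 and 0.87 after 2 h of H2O2, 1.26 and 1.36 after 2 h of KCl and 0.236 and 0.279 after 7 h of KCl. The RNA of Zfp513 was 30.6 and 34.1 CPM in that control and 25.3 and 19.3 CPM after 2 h of KCl, a log2 fold change of -0.54, with footprints at 13.0 and 9.34 and then 3.35 and 7.65 CPM. A read-in call from Zfp91 into Cntf was listed in both libraries of every stress group except 7 h of H2O2 and in no control library, although the estimates overlapped, at 0.957 to 1.27 in the 4 controls and 0.779 to 1.38 in the called libraries. Zfp384 read into Ing4 with estimates of 0.217 and 0.267 after 2 h of H2O2 and 0.244 and 0.326 after 2 h of KCl.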

How the data were processed

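RNA and footprint libraries of NIH3T3 cells (26 in 13 groups of 2) were mapped to mm10 with STAR, Bowtie and RSEM named in the submitters' processing notes (versions not stated). The authors deposited expected counts and TPM per gene, the counts already whole numbers, with TRUE or FALSE readthrough and read-in calls (other values) and read-in estimates as a ratio. Footprint columns that match no labelled sample (12) were not used.

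Counts were tested with edgeR 4.0.16 (TMM scaling, filterByExpr, quasi-likelihood, Benjamini-Hochberg over all genes), 1 fit per experiment, and translational efficiency with a kind-by-group term. CPM uses TMM library sizes. The members, lists and tests were chosen with earlier results of these data known. Named members are the 3 largest changes each way per RNA comparison (mean CPM of at least 3, groups not overlapping), the 2 largest each way per footprint comparison (mean of at least 10 counts), those called alike in all 6 stresses, the role lists and members with read-in calls. A few others were added after their values were seen. Replicate numbers were not taken as pairs. Alternatives were DESeq2 1.42.0, limma 3.58.1 on log2(TPM + 1), no count filter, a log2 change of 1, a floor of 400, the replicate block, 2-group fits and leaving out each library. Scripts were tested on simulated data.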

Additional observations from a re-analysis of the deposited data

Results flagged for a closer look

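The members differed between stress groups under the same control in 5 tested comparisons of RNA, by edgeR's quasi-likelihood test of the difference itself. Between 7 h and 2 h, 222 of 236 members (94.1%) were called for KCl, against 68.8% of all genes, and 185 (78.4%) for H2O2, against 73.4%. The 2 heat regimes differed in 181 (76.7%), against 75.1%. Between H2O2 and KCl, 174 (73.7%) were called at 2 h, against 51.3%, and 177 (75%) at 7 h, against 78.4%. For the H2O2 times, the heat regimes and the stresses at 7 h the share of members called was near that of all genes, so no excess of calls is read there. All genes include those under the count floor of the members. Between the heat regimes 79.4% of the other genes with the same floor were called. Such a share is not given here for the H2O2 and KCl comparisons, so no excess is read from those either.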

How the results depend on the processing

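Of 237 recomputed counts of called members, 182 stayed within 1.5 times the value reported. Single members were recomputed only for the largest changes per RNA or footprint comparison and for those called alike in all 6 stresses. Of these 1061 recomputed values for named members, 1014 kept their direction and their call, 47 kept direction without the call and 0 reversed. Other single-gene values printed above, including those for role lists and for translational efficiency, were not recomputed. Asking also for a log2 change of 1 or more left 4 members at 44 °C, 22 at 42 °C, 41 between the regimes, 43 and 27 for early and late H2O2, 107 and 28 for early and late KCl, 73 between the H2O2 times, and 80 and 44 between H2O2 and KCl at 2 h and 7 h. Over the 12747 genes tested in heat, this rule left 776 higher and 622 lower at 44 °C (members 2 and 2). At 42 °C it left 360 and 650 (members 1 and 21), and between the regimes 647 and 1268 (members 1 and 40). For the H2O2 and KCl counts no share of all genes under this rule is given, so nothing about the class is read from them. For footprints DESeq2 called 3 and 31 for early and late H2O2, 16 for late KCl and 34 between H2O2 and KCl at 7 h, limma on TPM called 1 for early H2O2, and fits of only 2 groups called 1 for early H2O2 and 31 for early KCl. For translational efficiency limma voom called 3, 4, 7 and 3 for early and late H2O2 and early and late KCl. Leaving out 1 library at a time gave, for footprints, 1 to 2 and 21 to 37 for early and late H2O2, 15 to 47 and 11 to 23 for early and late KCl, and 26 to 32 between H2O2 and KCl, and for translational efficiency 5 to 23, 6 to 23, 9 to 26 and 5 to 14 in the order above. RNA counts under such omissions stayed within 1.5 times, at 196 to 202 for 2 h of KCl against control and 218 to 219 for 7 h against 2 h. The replicate numbers were not taken as pairing the libraries, since not every correlation of same-numbered deviations was over 0.1. They ran from -0.053 to 0.054 in the H2O2 and KCl RNA, -0.025 to 0.117 in the heat RNA and -0.384 to 0.417 in footprints. Of the footprint correlations 6 of 10 were over 0.1, from 0.198 to 0.417. Those with early H2O2 were all negative, from -0.384 to -0.0459. A block by replicate number may thus not describe the early H2O2 footprints. Shared batches among some footprint libraries were not tested. With the replicate block the counts of called members were 169, 174 and 188 for heat (44 °C, 42 °C and between), 171, 153, 205 and 182 for early and late H2O2 and early and late KCl, 188 and 223 between times, 176 and 180 between H2O2 and KCl, 4, 51, 50, 26 and 58 for footprints and 18, 23, 18 and 14 for translational efficiency, and among named members 2 footprint calls were lost, Zfp608 at 2 h of H2O2 (adjusted p = 0.0509) and Zfp414 at 7 h of KCl (0.053). On TPM scaling Zfp654 at 2 h of H2O2 and Zfp367 at 7 h of KCl in RNA were no longer called. The cause of these shifts was not tested. Footprint depth limits members with few counts, for which a fall could not be measured beyond the floor of 3 counts.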

Other observations

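The 129 numbered Zfp genes under the count floor are not members, and their low counts make each value uncertain. In the RNA tests 96 of them could be fitted in the H2O2 and KCl experiment and 93 in the heat experiment. At 2 h of KCl 71 were called lower and 5 higher (all genes, 27% lower and 27.2% higher). Between 7 h and 2 h of KCl 68 were higher and 4 lower (all genes, 35.1% higher and 33.7% lower). At 44 °C 44 were higher and 9 lower (all genes, 35.4% higher and 35.7% lower), and at 42 °C 55 were lower and 1 higher (all genes, 31.9% lower and 31.7% higher). Of the 129, 34 reached 200 counts in both libraries of some stress group, 31 of them at 44 °C and 0 at 2 h of KCl. In the other direction, 121 members were under 200 counts in 1 or both libraries after 2 h of KCl, and 109 members kept 200 or more in every stress library. These are raw counts, not scaled for depth. The 2 h KCl libraries held 25207561 and 26939393 counts in all, and their control libraries 45244430 and 35775040. A gene near the floor could therefore cross it with no change in level.

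Every sequence of 8 bases was also counted in the 250 bases before each start site, after the data had been seen. CCAATCAG stood upstream of 17.7% of the 192 members and of 4.43% of all genes, and GAGTGACA upstream of 13% and 1.59%. Paralogues share promoter sequence, so these promoters are not independent of each other. Here too all genes were not limited to those that met the count floor.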
